A study of Mus musculus with 24 samples.

Results

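The genes described here are 32 members of the NRF2 antioxidant and detoxification programme, chosen by symbol, and all 32 were present among the 19880 genes of the deposited table. The choice was made with earlier results of these data known, so member counts beside the shares of all genes are a description. The genes were followed through 24 poly(A) RNA libraries of mouse tail fibroblasts, 3 for each combination of 4 cell-states with DMSO or MG132. All cell-states were made from the same pool of fibroblasts of male C57Bl/6J mice aged 4 weeks, and the medium of every group contained the thiol β-mercaptoethanol. Proliferating cultures were seeded sparsely, senescent cultures had been passaged until they ceased to expand, quiescent cultures were left at confluence, and immortalized cultures carried the retroviral SV40 large T antigen, which disables p53 and RB. Treated cultures received 10 µM MG132, a peptide aldehyde that inhibits the proteasome, for 8 h, and controls 0.1% DMSO. The fibroblasts were isolated from the tails of 3 mice. The sources used do not say how many transductions lie behind the immortalized libraries.

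NRF2, the product of Nfe2l2, is a basic leucine zipper factor with a short life. KEAP1 holds it in the cytoplasm and, as an adaptor of the CUL3 ubiquitin ligase, passes it to the proteasome, which degrades it. Oxidants and electrophiles modify cysteines of KEAP1 and so act before the proteasome, whereas a proteasome inhibitor acts on the degradation itself. Stabilised NRF2 pairs with small MAF proteins on antioxidant response elements and drives genes for glutathione and thioredoxin reduction, NADPH supply, heme and iron handling, and conjugation of foreign compounds. BACH1 occupies the same elements as a repressor, above all at Hmox1. RNA levels do not show the amount of NRF2 protein, which was not measured in these libraries.

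Levels are given as TPM (transcripts scaled for length and to a constant sum in each library), as the authors deposited them, in the order of replicates 1, 2 and 3. TPM is scaled per length, so levels of different genes can be compared, but it keeps no depth, so the counting error behind a value is unknown. Under MG132 the deposited TPM of the median gene was lower, with log2 differences of -0.48 (proliferating), -0.05 (senescent), -0.18 (quiescent) and -0.57 (immortalized). The constant-sum step can be undone from the size of the lowest steps in each library, which gave medians of -0.43, -0.11, -0.10 and -0.50, and both readings, the deposited TPM and this one, were used beside the scaled one. Changes are therefore stated relative to the typical gene: size factors from median ratios were applied to the libraries, and a log2 difference is the fitted difference of log2(scaled TPM + 1), with its standard error after the ± sign. A gene was called at a limma adjusted p under 0.05 over the 13489 genes tested. A gene called higher on this scale can have an equal or lower deposited TPM, and members for which that happened are named. In bulk RNA, fewer cells expressing a gene cannot be told apart from less RNA per cell.

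Several libraries stood apart from the others of their group. Library 3 of the proliferating DMSO group was the highest of its group for 27 of 31 members, against 41.8% of all genes, its mean log2 level of 6 HSF1 target genes was 8.89 against 6.23 and 6.35, and that of 3 proliferation genes was 2.86 against 4.80 and 4.94. Library 2 of the immortalized DMSO group was the lowest for 25 members (41.7% of all genes), and library 1 of the quiescent MG132 group was the lowest for 25 (43.1%). Library 1 of the quiescent DMSO group was the highest for 23 (36.8%). Library 3 was the highest for 20 in the senescent DMSO (36.3%) and the immortalized MG132 group (28.5%). The HSF1 target mean was 7.56 in senescent DMSO library 3 against 6.24 and 6.56, and 7.89 in immortalized DMSO library 3 against 6.965 and 6.665. For the 3 proliferation genes the mean under DMSO was 3.62, 5.21 and 4.60 in quiescent libraries. It was 2.56, 1.24 and 0.94 in senescent and 4.92, 7.21 and 4.39 in immortalized ones. On these genes the quiescent and proliferating DMSO libraries overlapped, so they do not separate the 2 cell-states. The 8 fibroblast markers summed under DMSO to 8422 to 13440.0 TPM (proliferating), 2697 to 3716 TPM (senescent), 15950.0 to 19350.0 TPM (quiescent) and 5672 to 5825 TPM (immortalized). With MG132 these sums were lower without overlap in every cell-state, at 5323 to 6738, 2121 to 2451, 5655 to 5969 and 3054 to 3545 TPM. The summed markers of keratinocytes reached at most 9.71 TPM and of endothelial cells 7.50 TPM, those of leukocytes reached 81.6 TPM, of which Csf1r made up as much as 66.3 TPM, and Acta1 reached 540.1 TPM. The leukocyte sum was higher with MG132 without overlap in every cell-state, going from 13.1 to 30.3 up to 35.6 to 42.0 TPM (proliferating), from 15.2 to 23.9 up to 67.5 to 81.6 TPM (senescent), from 9.98 to 18.6 up to 22.1 to 39.7 TPM (quiescent) and from 9.13 to 13.9 up to 14.8 to 22.5 TPM (immortalized). Adgre1, a macrophage marker of that list, was at 0 in all proliferating and immortalized DMSO libraries. Their part in the results below was not tested.

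Promoters are shown because the antioxidant response element is the DNA to which NRF2 and small MAF proteins bind. RefSeq promoters of GRCm38.p6, from 250 bases before to 50 after the gene start, were matched by symbol for 26 of the 32 members. They were not matched for Abcc1, Gsr, Hmox1, Prdx6, Gclc and Gsta4. The core element TGACNNNGC, searched on both strands, was present in the promoters of 9 of 26 members (34.6%) and of 14% of all 27025 genes in the same table. These 9 were Nfe2l2, Gclm, Txnrd1, Srxn1, Prdx1, G6pdx, Pgd, Me1 and Sod1. The AP-1 element TGANTCA, which an antioxidant response element can contain, was present in 6 members (23.1%) and 8.97% of genes, and the heat shock factor pattern GAANNTTC or TTCNNGAA in 3 members (11.5%) and 17% of genes. A match is a description of the letters and not a measured binding site. The 3 promoters below belong to members that rose under MG132 and hold TGACNNNGC. They come from members called in 1 direction in all 4 responses or among the 3 largest changes of a response. Srxn1 and Sod1 rose in 4 cell-states and Txnrd1 in 3. Of the others with TGACNNNGC, Nfe2l2, Gclm, Prdx1, Pgd and Me1 rose in 2 or 3 cell-states, and G6pdx fell in 3. Capitals mark the matches to TGACNNNGC or to TGANTCA on either strand.
Srxn1, chr2:152105274-152105573, plus strand: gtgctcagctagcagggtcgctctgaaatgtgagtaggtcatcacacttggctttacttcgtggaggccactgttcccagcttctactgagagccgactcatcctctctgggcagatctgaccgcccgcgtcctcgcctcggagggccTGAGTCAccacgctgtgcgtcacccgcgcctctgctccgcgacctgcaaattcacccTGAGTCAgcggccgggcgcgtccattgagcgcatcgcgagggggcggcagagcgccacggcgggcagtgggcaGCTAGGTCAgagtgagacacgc
Txnrd1, chr10:82858956-82859255, plus strand: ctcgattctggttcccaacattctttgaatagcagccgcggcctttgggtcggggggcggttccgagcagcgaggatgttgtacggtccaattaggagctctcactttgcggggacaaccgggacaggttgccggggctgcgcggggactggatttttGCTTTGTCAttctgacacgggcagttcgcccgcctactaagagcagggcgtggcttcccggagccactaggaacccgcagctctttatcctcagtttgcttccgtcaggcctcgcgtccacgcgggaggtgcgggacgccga
Sod1, chr16:90220512-90220811, plus strand: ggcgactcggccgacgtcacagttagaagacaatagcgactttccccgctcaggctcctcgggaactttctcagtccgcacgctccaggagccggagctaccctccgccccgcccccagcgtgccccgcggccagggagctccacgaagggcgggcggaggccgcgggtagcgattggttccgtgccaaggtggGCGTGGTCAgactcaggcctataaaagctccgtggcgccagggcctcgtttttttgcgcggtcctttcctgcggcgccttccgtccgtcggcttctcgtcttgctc
The Srxn1 promoter held 1 match to TGACNNNGC and 2 to TGANTCA, while those of Txnrd1 and Sod1 held 1 match to TGACNNNGC each. The Txnrd1 gene has several start sites in that table and the one shown is the one with a match.

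The first question was which NRF2 genes changed with proteasome inhibition in each cell-state. In proliferating fibroblasts 23 of the 31 members tested rose and 2 fell, where 25.2% of all tested genes rose and 24.8% fell. Quiescent fibroblasts gave 21 rises and 1 fall, against 25.3% and 26.9% of all genes. Immortalized fibroblasts gave 18 rises and 4 falls, against 26.6% in either direction, and senescent fibroblasts 10 rises and 2 falls, against 22.7% and 23.4%. The median log2 difference of the members was 0.95 (proliferating), 0.22 (senescent), 1.20 (quiescent) and 0.76 (immortalized), while that of all genes was -0.02, -0.03, -0.02 and 0.01. Gsta2, a glutathione transferase with at most 1.97 TPM in any library, was below the filter and is the 1 member not tested. On the deposited TPM the splits were 14 rises and 4 falls (proliferating), 11 and 2 (senescent), 21 and 3 (quiescent) and 7 and 9 (immortalized). There the members had medians of 0.35, 0.21, 1.02 and -0.0027 in that order, against -0.48, -0.05, -0.18 and -0.57 for all genes. With the constant-sum step undone the splits were 13 and 4, 7 and 2, 21 and 1, and 7 and 7. Member medians were then 0.41, 0.13, 1.12 and 0.09, against -0.43, -0.11, -0.10 and -0.50 for all genes. As a check of the treatment, all 6 HSF1 target genes rose in every cell-state.

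**Figure D1:**
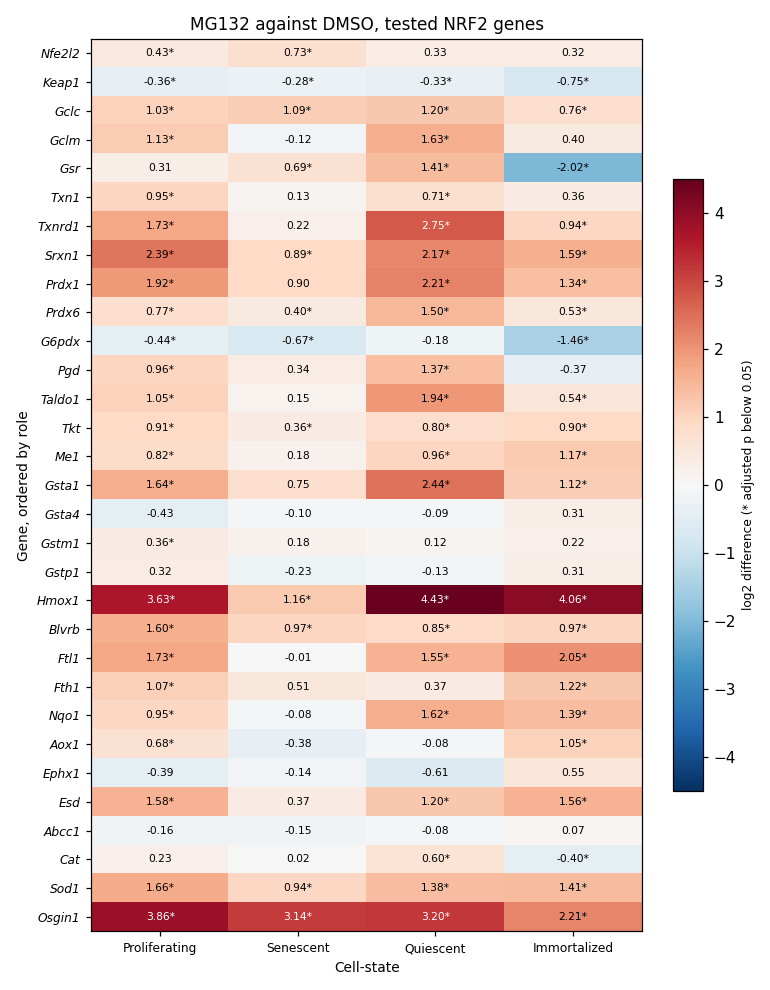
Log2 difference of MG132 against DMSO for the 31 tested NRF2 genes (rows, ordered by role) in the 4 cell-states (columns), with a star where the limma adjusted p was under 0.05. Hmox1 and Osgin1 carry the deepest red, Keap1 is blue in every column, and the senescent column is the palest, with a median of 0.22.

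Across cell-states, 8 members rose in all 4, namely Gclc, Srxn1, Prdx6, Tkt, Hmox1, Blvrb, Sod1 and Osgin1, and Keap1 fell in all 4, where 8.15% of all tested genes rose in all 4 and 7.6% fell in all 4. Of these, Hmox1, Sod1 and Keap1 kept all their calls on the deposited TPM and with the constant-sum step undone. Gsr and Cat rose in some cell-states and fell in others, as 10.3% of all genes did, and 5 members were called in none: Gsta4, Gstp1, Ephx1, Abcc1 and the untested Gsta2. Of all tested genes, 16.4% were called in none. The 32 members together made up 1.48 ± 0.52% (proliferating), 3.16 ± 0.41% (senescent), 1.20 ± 0.10% (quiescent) and 1.68 ± 0.33% (immortalized) of all TPM under DMSO (mean ± SD, n = 3 for each). Under MG132 the shares were 3.29 ± 0.18%, 4.24 ± 0.13%, 2.93 ± 0.37% and 3.15 ± 0.33%. The MG132 libraries lay above the DMSO libraries of the same cell-state without overlap, and the senescent DMSO libraries lay at about the level that the other cell-states had under MG132. The sum leans on a few abundant genes. Ftl1 and Fth1 alone held 0.61%, 1.64%, 0.56% and 0.72% of all TPM under DMSO, in the same order of cell-states. Under MG132 they held 1.18%, 1.88%, 1.15% and 1.54%.

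**Figure D2:**
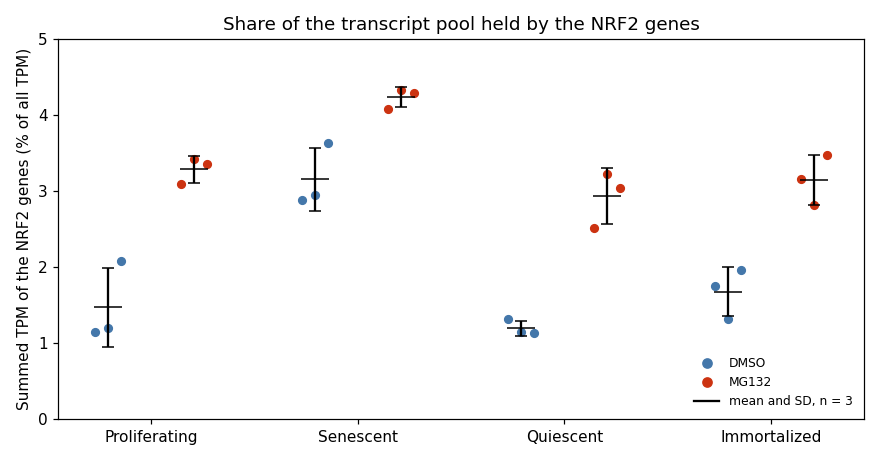
Summed TPM of the 32 NRF2 genes as a percentage of all TPM in each library (points), with the mean and SD of each group of 3. The share under DMSO was 3.16% in senescent fibroblasts and between 1.20% and 1.68% in the others. Ftl1 and Fth1 alone made up 1.64% of all TPM in the former and between 0.56% and 0.72% in the latter.

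The sensor and its factor came first. Nfe2l2 encodes NRF2, and under DMSO its level was 116, 103 and 159 TPM in proliferating, 114, 149 and 187 TPM in senescent, 160.3, 119 and 147 TPM in quiescent and 109, 88.9 and 129 TPM in immortalized fibroblasts. With MG132 Nfe2l2 reached 105, 117 and 109 TPM in proliferating, 254, 242 and 232 TPM in senescent, 147, 167 and 156 TPM in quiescent and 92.0, 66.9 and 79.3 TPM in immortalized fibroblasts. Only in senescent fibroblasts did the treated and control libraries separate, with the treated ones higher. There the log2 difference was 0.73 ± 0.16 (limma adjusted p = 0.00108). In proliferating fibroblasts it was 0.43 ± 0.16 (limma adjusted p = 0.0356) relative to the typical gene, but -0.17 on the deposited TPM and -0.11 with the constant-sum step undone, and the call was also lost in a fit of only those 6 libraries and without DMSO 1, DMSO 2, MG132 2 or MG132 3. In quiescent and immortalized fibroblasts Nfe2l2 differed by 0.33 ± 0.16 and 0.32 ± 0.16 and was not called, and the latter became -0.45 on the deposited TPM.

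Keap1, the adaptor that presents NRF2 to the ligase, stood under DMSO at 28.1, 26.2 and 30.7 TPM in proliferating, 29.8, 31.2 and 33.8 TPM in senescent, 41.6, 37.0 and 41.0 TPM in quiescent and 31.0, 26.6 and 32.0 TPM in immortalized fibroblasts. After MG132 Keap1 was at 13.6, 15.8 and 13.8 TPM in proliferating, 27.2, 25.0 and 24.5 TPM in senescent, 25.3, 28.3 and 29.2 TPM in quiescent and 11.4, 9.30 and 9.61 TPM in immortalized fibroblasts. The treated libraries lay below the controls in every cell-state with no overlap. Log2 differences of Keap1 were -0.36 ± 0.09 (proliferating), -0.28 ± 0.09 (senescent), -0.33 ± 0.09 (quiescent) and -0.75 ± 0.09 (immortalized), with limma adjusted p values of 0.0033, 0.0181, 0.00546 and 1.24e-06. The proliferating and senescent calls of Keap1 were lost in fits of only the 6 libraries of each cell-state, and the senescent call was also lost without DMSO library 3, MG132 library 2 or MG132 library 3, with log2 differences between -0.26 and -0.27. Under DMSO, Keap1 was higher in quiescent than in proliferating fibroblasts by 0.35 ± 0.09 (limma adjusted p = 0.00684).

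Glutathione synthesis begins with glutamate-cysteine ligase, whose catalytic subunit is Gclc and whose modifier subunit is Gclm, and oxidised glutathione is returned to its reduced form by glutathione reductase, Gsr. Under DMSO, Gclc stood at 31.2, 27.4 and 54.8 TPM in proliferating, 46.9, 64.9 and 98.6 TPM in senescent, 41.1, 26.3 and 38.1 TPM in quiescent and 39.0, 39.8 and 58.9 TPM in immortalized fibroblasts. MG132 brought Gclc to 44.3, 51.1 and 53.5 TPM in proliferating, 146, 157 and 126 TPM in senescent, 74.5, 70.8 and 68.7 TPM in quiescent and 57.1, 33.8 and 47.2 TPM in immortalized fibroblasts. The senescent and quiescent libraries separated by treatment, and those of the other cell-states overlapped. Gclc differed by 1.03 ± 0.25 (proliferating), 1.09 ± 0.25 (senescent), 1.20 ± 0.25 (quiescent) and 0.76 ± 0.25 (immortalized), and limma adjusted p values were 0.0019, 0.00136, 0.000525 and 0.015. The immortalized value became -0.0027 on the deposited TPM and 0.09 with the constant-sum step undone, and the proliferating one was 0.44 and 0.50 with no call on either. The immortalized call of Gclc was also lost without DMSO 1, MG132 1 or MG132 3. Gclm rose in proliferating (log2 difference 1.13 ± 0.18) and quiescent fibroblasts (1.63 ± 0.18) and was not called in senescent (-0.12 ± 0.18) or immortalized fibroblasts (0.40 ± 0.18).

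Gsr moved in opposite directions in the cell-states. Before treatment Gsr was at 122, 105 and 157 TPM in proliferating, 139, 157 and 163 TPM in senescent, 98.5, 86.9 and 102 TPM in quiescent and 371, 399.6 and 439 TPM in immortalized fibroblasts, so that every immortalized library lay above every library of the other cell-states. With MG132 Gsr was at 87.6, 107 and 118 TPM in proliferating, 271, 247 and 217 TPM in senescent, 237, 215 and 223 TPM in quiescent and 54.7, 57.1 and 61.0 TPM in immortalized fibroblasts, and the immortalized libraries were now the lowest. The mean in immortalized fibroblasts went from 403 ± 34.4 to 57.6 ± 3.20 TPM (SD, n = 3). Log2 differences of Gsr were 0.31 ± 0.14 (proliferating), 0.69 ± 0.14 (senescent), 1.41 ± 0.14 (quiescent) and -2.02 ± 0.14 (immortalized), and limma adjusted p values were 0.075, 0.000572, 2.19e-07 and 7.3e-10. The fall in immortalized fibroblasts and the rises in senescent and quiescent fibroblasts had no overlap between treated and control libraries. In proliferating fibroblasts Gsr was not called, and it was called higher without DMSO library 3 (log2 difference 0.51) or MG132 library 1 (0.44). Under DMSO, Gsr was higher in immortalized than in proliferating fibroblasts by 1.66 ± 0.14 on the log2 scale (limma adjusted p = 6.89e-08).

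**Figure D3:**
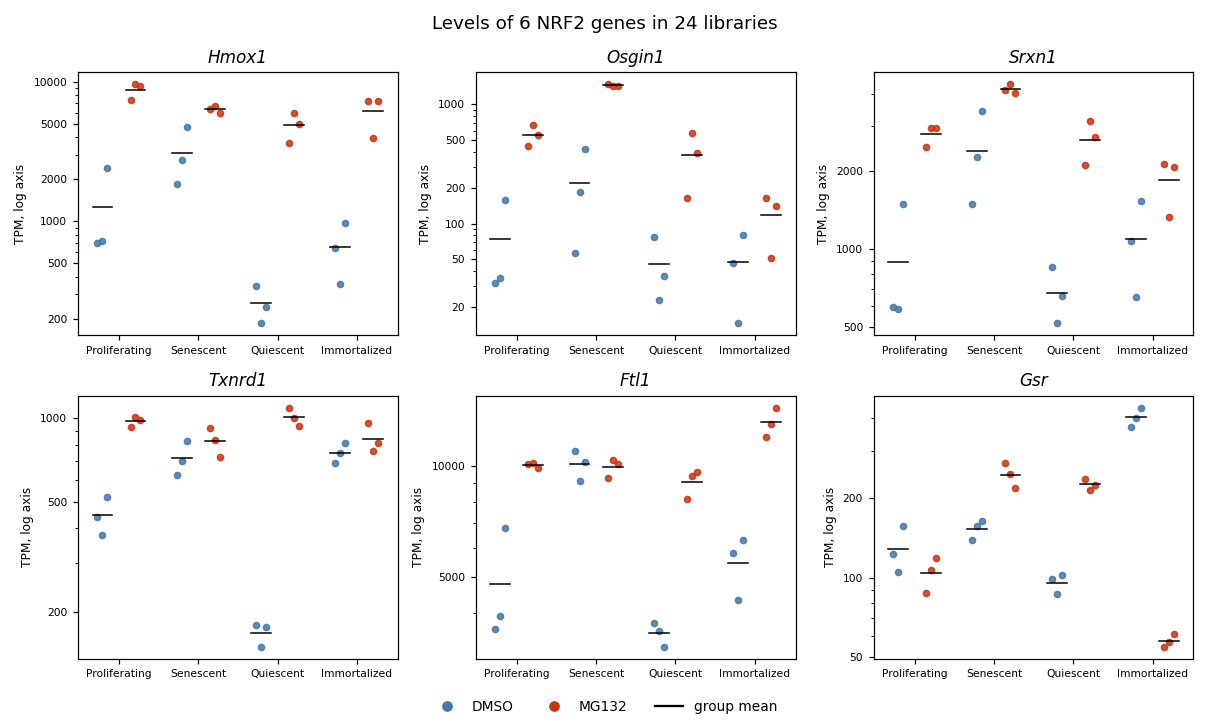
Deposited TPM on a log axis for Hmox1, Osgin1, Srxn1, Txnrd1, Ftl1 and Gsr in each library (points, DMSO blue and MG132 red) with the group mean (line), by cell-state. Gsr falls from a mean of 403 to 57.6 TPM in immortalized fibroblasts and goes up in quiescent ones, and the senescent Ftl1 libraries of both treatments overlap.

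The thioredoxin branch reduces disulfides and peroxides, and every call among its members was a rise: all 5 rose in proliferating and in quiescent fibroblasts, 4 rose in immortalized and 2 in senescent fibroblasts, against 22.7% to 26.6% of all genes in a single response. Txnrd1 encodes the cytosolic thioredoxin reductase and lies on chromosome 10. Its promoter above carries a TGACNNNGC match on the minus strand of the gene. Under DMSO, Txnrd1 stood at 439, 378 and 519 TPM in proliferating, 623, 698 and 824 TPM in senescent, 179, 150.2 and 177 TPM in quiescent and 687, 745 and 814 TPM in immortalized fibroblasts. After MG132 Txnrd1 was at 923, 1008 and 983 TPM in proliferating, 916, 831 and 724 TPM in senescent, 1089, 1000.0 and 931 TPM in quiescent and 954, 763 and 811 TPM in immortalized fibroblasts. Quiescent fibroblasts held the lowest DMSO levels of all, while their treated libraries lay within or above the range of the other treated libraries. Log2 differences of Txnrd1 were 1.73 ± 0.13 (proliferating), 0.22 ± 0.13 (senescent), 2.75 ± 0.13 (quiescent) and 0.94 ± 0.13 (immortalized), and limma adjusted p values were 6.13e-09, 0.17, 5.94e-12 and 4.45e-06. The immortalized call was lost on the deposited TPM (log2 difference 0.17) and with the constant-sum step undone (0.26). Under DMSO, Txnrd1 was lower in the quiescent libraries than in the proliferating ones, with a log2 difference of -1.52 ± 0.13 (limma adjusted p = 4.41e-08) and higher in immortalized than in quiescent ones by 2.27 ± 0.13 (limma adjusted p = 1.31e-10).

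Sulfiredoxin, the product of Srxn1, repairs peroxiredoxins that have been overoxidised. Under DMSO, Srxn1 stood at 596, 584 and 1489 TPM in proliferating, 1489, 2275 and 3417 TPM in senescent, 848, 516 and 659.7 TPM in quiescent and 1076, 651 and 1539 TPM in immortalized fibroblasts. MG132 took Srxn1 to 2474, 2946 and 2951 TPM in proliferating, 4129, 4362 and 4002 TPM in senescent, 2123, 3121 and 2707 TPM in quiescent and 2125, 1327 and 2075 TPM in immortalized fibroblasts. Treated and control libraries separated in all cell-states but the immortalized, and library 3 of the proliferating and senescent DMSO groups was the highest of its group. Srxn1 differed by 2.39 ± 0.34 (proliferating), 0.89 ± 0.34 (senescent), 2.17 ± 0.34 (quiescent) and 1.59 ± 0.34 (immortalized), and limma adjusted p values were 1.2e-05, 0.0394, 3.64e-05 and 0.000628. In senescent fibroblasts the call was lost without any 1 of the libraries other than DMSO 3, with log2 differences from 0.64 to 0.92 over those 5, and it was also lost with the constant-sum step undone (0.81) and with no filter. Prdx6 encodes a peroxiredoxin that also acts on phospholipids. Under DMSO, Prdx6 stood at 169, 172 and 262 TPM in proliferating, 245, 251 and 287 TPM in senescent, 132, 114 and 113 TPM in quiescent and 207, 169 and 233 TPM in immortalized fibroblasts. MG132 changed Prdx6 to 215, 221 and 228 TPM in proliferating, 333, 351 and 334 TPM in senescent, 273, 319.8 and 309 TPM in quiescent and 172, 161 and 176 TPM in immortalized fibroblasts. The gap between treated and control libraries was clear in senescent and widest in quiescent fibroblasts.

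Log2 differences of Prdx6 were 0.77 ± 0.15 (proliferating), 0.40 ± 0.15 (senescent), 1.50 ± 0.15 (quiescent) and 0.53 ± 0.15 (immortalized), with limma adjusted p values of 0.000301, 0.0369, 1.88e-07 and 0.00587, but the immortalized one became -0.25 on the deposited TPM and -0.15 with the constant-sum step undone. The proliferating call of Prdx6 was lost on both scales (0.17 and 0.22), and the senescent call was lost with the step undone (0.31) and without any 1 library other than DMSO 3. Prdx1, an abundant cytosolic peroxiredoxin, rose in proliferating (1.92 ± 0.38), quiescent (2.21 ± 0.38) and immortalized fibroblasts (1.34 ± 0.38) and was not called in senescent fibroblasts (0.90 ± 0.38). The immortalized call of Prdx1 was lost on the deposited TPM (0.56) and with the step undone (0.66). Txn1, thioredoxin itself, rose in proliferating (0.95 ± 0.22) and quiescent fibroblasts (0.71 ± 0.22), and the quiescent call was lost without DMSO library 3 and the proliferating call on both other scales (0.35 and 0.41).

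NADPH feeds both reduction systems and comes from the pentose phosphate pathway and malic enzyme. Here the members diverged. G6pdx, the first and rate-limiting enzyme of the pathway, fell in proliferating (-0.44 ± 0.10), senescent (-0.67 ± 0.10) and immortalized fibroblasts (-1.46 ± 0.10) and was not called in quiescent fibroblasts (-0.18 ± 0.10). The mean of G6pdx in immortalized fibroblasts was 78.9 ± 10.4 TPM with DMSO and 16.3 ± 1.26 TPM with MG132 (SD, n = 3). Taldo1 and Tkt, the transaldolase and transketolase of the later steps, did not share that fall. Tkt stood under DMSO at 1643, 1660.2 and 1922 TPM in proliferating, 1820.0, 1764 and 1789 TPM in senescent, 1426, 1405 and 1552 TPM in quiescent and 2103, 2131 and 2176 TPM in immortalized fibroblasts. With MG132 Tkt was at 2159, 2182 and 2104 TPM in proliferating, 2387, 2331 and 2141 TPM in senescent, 2375, 2146 and 2186 TPM in quiescent and 2413, 2290.4 and 2304 TPM in immortalized fibroblasts. The treated libraries were higher in every cell-state with no overlap. Tkt differed by 0.91 ± 0.11 (proliferating), 0.36 ± 0.11 (senescent), 0.80 ± 0.11 (quiescent) and 0.90 ± 0.11 (immortalized), and limma adjusted p values were 2.07e-06, 0.0109, 8.91e-06 and 1.19e-06. Its call was lost in immortalized fibroblasts on the deposited TPM (0.13) and in both senescent (0.28) and immortalized fibroblasts (0.22) with the step undone, and the senescent one also in a fit of only those 6 libraries.

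Pgd, which makes the second NADPH of the pathway, was under DMSO at 248, 234 and 437 TPM in proliferating, 304, 426 and 549 TPM in senescent, 303, 202 and 244 TPM in quiescent and 388, 259.7 and 476 TPM in immortalized fibroblasts. After MG132 Pgd was at 359.7, 399 and 375 TPM in proliferating, 543, 520.3 and 501 TPM in senescent, 470.4, 655 and 574 TPM in quiescent and 187, 138 and 171 TPM in immortalized fibroblasts. In immortalized fibroblasts the treated libraries were all lower than the controls, and in quiescent fibroblasts they were all higher. Pgd differed by 0.96 ± 0.24 (proliferating), 0.34 ± 0.24 (senescent), 1.37 ± 0.24 (quiescent) and -0.37 ± 0.24 (immortalized), and limma adjusted p values were 0.00212, 0.246, 8.39e-05 and 0.194, so that the immortalized decrease was not called relative to the typical gene, although it was on the deposited TPM (-1.14) and with the step undone (-1.05). The proliferating call of Pgd was lost on both scales (0.36 and 0.42). Taldo1 rose in proliferating (1.05 ± 0.14), quiescent (1.94 ± 0.14) and immortalized fibroblasts (0.54 ± 0.14), the last of which became -0.23 on the deposited TPM and -0.14 with the step undone. Me1, cytosolic malic enzyme, rose by 0.82 ± 0.09, 0.96 ± 0.09 and 1.17 ± 0.09 in the same 3 cell-states, and its proliferating call was lost with the step undone (0.28).

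Glutathione transferases couple glutathione to electrophiles. Of the 4 tested, 2 rose in proliferating, 1 in quiescent, 1 in immortalized and none in senescent fibroblasts. With 22.7% to 26.6% of all genes rising in a single response, 1 of 4 is no more than the share over all genes. Gsta1 was at 0.107 to 14.0 TPM and rose in proliferating (1.64 ± 0.39), quiescent (2.44 ± 0.39) and immortalized fibroblasts (1.12 ± 0.39). Its immortalized call was lost on both other scales, in a fit of only those 6 libraries, and without DMSO 1, DMSO 2 or MG132 3. Gsta1 and Gsta2 are close copies, so that reads may be shared between them and their values are uncertain. Gstm1 was called higher in proliferating fibroblasts (0.36 ± 0.14), but that became -0.23 on the deposited TPM and -0.17 with the step undone, and the call was lost without DMSO 1, MG132 1 or MG132 2, with no filter, and in a fit of the 6 libraries. In immortalized fibroblasts the uncalled difference of Gstm1 (0.22 ± 0.14) became -0.54 and -0.45, and that of Gstp1 (0.31 ± 0.17) became -0.46 on the deposited TPM.

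Gsta4 acts on hydroxynonenal, a product of lipid peroxidation. Under DMSO, Gsta4 stood at 88.8, 103 and 140.3 TPM in proliferating, 53.5, 103 and 121 TPM in senescent, 132, 72.5 and 81.6 TPM in quiescent and 22.0, 4.89 and 16.9 TPM in immortalized fibroblasts. With MG132 Gsta4 was at 54.0, 67.1 and 41.4 TPM in proliferating, 82.2, 66.5 and 96.2 TPM in senescent, 35.5, 118 and 104 TPM in quiescent and 8.90, 7.69 and 11.2 TPM in immortalized fibroblasts. It separated the immortalized libraries from all others under DMSO, and treated and control libraries overlapped in 3 cell-states. Gsta4 responded to MG132 by -0.43 ± 0.44 (proliferating), -0.10 ± 0.44 (senescent), -0.09 ± 0.44 (quiescent) and 0.31 ± 0.44 (immortalized), with no call. Under DMSO, Gsta4 was lower in the immortalized libraries than in the proliferating ones, with a log2 difference of -3.02 ± 0.44 (limma adjusted p = 2.87e-05), and lower than in the quiescent ones, with -2.66 ± 0.44 (limma adjusted p = 5.5e-05).

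Heme and iron handling held the largest fitted response of all members, that of Hmox1 in quiescent fibroblasts. Hmox1, heme oxygenase 1, on chromosome 8 from 75093621 to 75100589 (GRCm38), opens the heme ring and frees iron. Under DMSO, Hmox1 stood at 702, 723 and 2396 TPM in proliferating, 1837, 2749.6 and 4730.1 TPM in senescent, 346, 186 and 242 TPM in quiescent and 641, 358 and 976 TPM in immortalized fibroblasts. MG132 brought Hmox1 to 7346, 9648 and 9361 TPM in proliferating, 6412, 6734 and 6007 TPM in senescent, 3636, 5960.4 and 5006 TPM in quiescent and 7223, 3974 and 7248 TPM in immortalized fibroblasts. Every treated library lay above every control library of its cell-state. The controls ranged widely, from the quiescent libraries, which were the lowest, to the senescent ones, and library 3 was the highest of the proliferating and senescent controls. Log2 differences of Hmox1 were 3.63 ± 0.43 (proliferating), 1.16 ± 0.43 (senescent), 4.43 ± 0.43 (quiescent) and 4.06 ± 0.43 (immortalized), and limma adjusted p values were 1.33e-06, 0.0316, 1.22e-07 and 1.62e-07. The senescent call was lost without any 1 library other than DMSO 3, with log2 differences from 0.89 to 1.20 over those 5. Under DMSO, Hmox1 was lower in the quiescent libraries than in the proliferating ones, with a log2 difference of -2.22 ± 0.43 (limma adjusted p = 0.000597) and lower than in senescent ones by -3.57 ± 0.43 (limma adjusted p = 1.9e-06).

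Biliverdin reductase B, the product of Blvrb, reduces biliverdin and flavins. Under DMSO, Blvrb stood at 44.6, 51.6 and 115 TPM in proliferating, 83.1, 87.7 and 102 TPM in senescent, 82.9, 80.8 and 76.6 TPM in quiescent and 104, 60.3 and 118 TPM in immortalized fibroblasts. After MG132 Blvrb was at 130.4, 120.2 and 140.0 TPM in proliferating, 159, 189 and 185 TPM in senescent, 112, 136 and 138 TPM in quiescent and 102, 90.9 and 122 TPM in immortalized fibroblasts. Treated libraries were higher without overlap in all cell-states except the immortalized, and proliferating DMSO library 3 stood well above the other 2 of its group. Blvrb differed by 1.60 ± 0.27 (proliferating), 0.97 ± 0.27 (senescent), 0.85 ± 0.27 (quiescent) and 0.97 ± 0.27 (immortalized), and limma adjusted p values were 6.01e-05, 0.00539, 0.0119 and 0.00438, with the immortalized call lost on the deposited TPM (0.20) and with the step undone (0.30). Ferritin stores the freed iron in shells of light chains, Ftl1, and heavy chains, Fth1. Under DMSO, Ftl1 stood at 3638, 3945 and 6819.8 TPM in proliferating, 11013, 9089 and 10269.8 TPM in senescent, 3759, 3583 and 3246 TPM in quiescent and 5816, 4339 and 6298 TPM in immortalized fibroblasts. With MG132 Ftl1 was at 10136, 10210.3 and 9898 TPM in proliferating, 9294, 10381 and 10144 TPM in senescent, 8148, 9429.8 and 9668 TPM in quiescent and 12024, 12969 and 14402 TPM in immortalized fibroblasts. The senescent libraries overlapped, and the treated libraries of the other 3 cell-states were all above their controls.

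Log2 differences of Ftl1 were 1.73 ± 0.22 (proliferating), -0.01 ± 0.22 (senescent), 1.55 ± 0.22 (quiescent) and 2.05 ± 0.22 (immortalized), with limma adjusted p values of 3.43e-06, 0.978, 1.27e-05 and 2.36e-07, and the senescent one was 0.21 with array weights. Fth1 stood under DMSO at 1029, 1072 and 1791 TPM in proliferating, 5890.0, 5856 and 7035 TPM in senescent, 2388, 2005 and 1901 TPM in quiescent and 1969, 1060.1 and 2100.4 TPM in immortalized fibroblasts. After MG132 Fth1 was at 1738, 1798 and 1687 TPM in proliferating, 7993, 8751 and 9681 TPM in senescent, 1865, 2744 and 2615 TPM in quiescent and 2097, 2086 and 2515 TPM in immortalized fibroblasts. Senescent libraries held the most Fth1 with either treatment. Fth1 differed by 1.07 ± 0.24 (proliferating), 0.51 ± 0.24 (senescent), 0.37 ± 0.24 (quiescent) and 1.22 ± 0.24 (immortalized), and it was called in proliferating and immortalized fibroblasts, where the treated and control libraries overlapped. On the deposited TPM and with the step undone neither call held. Under DMSO, Fth1 was higher in the senescent libraries than in the proliferating ones, with a log2 difference of 2.23 ± 0.24 (limma adjusted p = 4.66e-07).

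Of the 5 detoxification and export genes, 3 rose in proliferating, 2 in quiescent, 3 in immortalized and 0 in senescent fibroblasts, against 25.2%, 25.3%, 26.6% and 22.7% of all genes. Nqo1 encodes the quinone reductase that is a standard readout of NRF2. Under DMSO, Nqo1 stood at 73.5, 69.7 and 133 TPM in proliferating, 586, 798 and 973 TPM in senescent, 93.0, 65.6 and 68.6 TPM in quiescent and 96.0, 58.8 and 104 TPM in immortalized fibroblasts. MG132 brought Nqo1 to 107, 127 and 105 TPM in proliferating, 751, 682 and 734 TPM in senescent, 152, 244 and 231 TPM in quiescent and 149, 103 and 143 TPM in immortalized fibroblasts. Senescent libraries of either treatment lay above every other library. Nqo1 differed by 0.95 ± 0.25 (proliferating), -0.08 ± 0.25 (senescent), 1.62 ± 0.25 (quiescent) and 1.39 ± 0.25 (immortalized), and limma adjusted p values were 0.00367, 0.827, 2.64e-05 and 9.56e-05. Its proliferating call was lost on the deposited TPM (0.35) and with the step undone (0.41). Under DMSO, Nqo1 was higher in senescent than in proliferating fibroblasts by 3.03 ± 0.25 (limma adjusted p = 1.28e-08), lower in quiescent than in senescent ones by a log2 difference of -3.39 ± 0.25 (limma adjusted p = 2.46e-09) and lower in immortalized than in senescent ones by -3.10 ± 0.25 (limma adjusted p = 7.1e-09).

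Ephx1, microsomal epoxide hydrolase, stood under DMSO at 331, 354 and 295 TPM in proliferating, 739, 1452 and 1281 TPM in senescent, 573, 412 and 482 TPM in quiescent and 161, 65.9 and 139 TPM in immortalized fibroblasts. With MG132 Ephx1 was at 169, 212 and 122 TPM in proliferating, 1016, 854 and 1151 TPM in senescent, 175, 392 and 314 TPM in quiescent and 96.5, 92.3 and 106 TPM in immortalized fibroblasts. The order of the cell-states, with senescent the highest and immortalized the lowest, was the same with both treatments in the group means. Ephx1 differed by -0.39 ± 0.29 (proliferating), -0.14 ± 0.29 (senescent), -0.61 ± 0.29 (quiescent) and 0.55 ± 0.29 (immortalized) and was called in none. On the deposited TPM it was called lower in proliferating (-0.99) and quiescent fibroblasts (-0.80), and in the proliferating ones with the step undone (-0.93). Under DMSO, Ephx1 was lower in immortalized than in senescent fibroblasts by a log2 difference of -3.19 ± 0.29 (limma adjusted p = 3.52e-08). Esd, an esterase that also hydrolyses S-formylglutathione, rose in proliferating (1.58 ± 0.16), quiescent (1.20 ± 0.16) and immortalized fibroblasts (1.56 ± 0.16).

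Aox1, aldehyde oxidase, was at 0.878 to 15.6 TPM and rose in proliferating (0.68 ± 0.25) and immortalized fibroblasts (1.05 ± 0.25), with both calls lost on the deposited TPM and with the step undone, and the proliferating one also with a pseudocount of 5 and without DMSO 2, MG132 1 or MG132 2. Abcc1, an exporter of glutathione conjugates, was called in no cell-state. Its immortalized difference of 0.07 ± 0.18 became -0.69 on the deposited TPM and -0.60 with the step undone, both called, and the proliferating one (-0.16 ± 0.18) became -0.75 and -0.69.

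**Figure D4:**
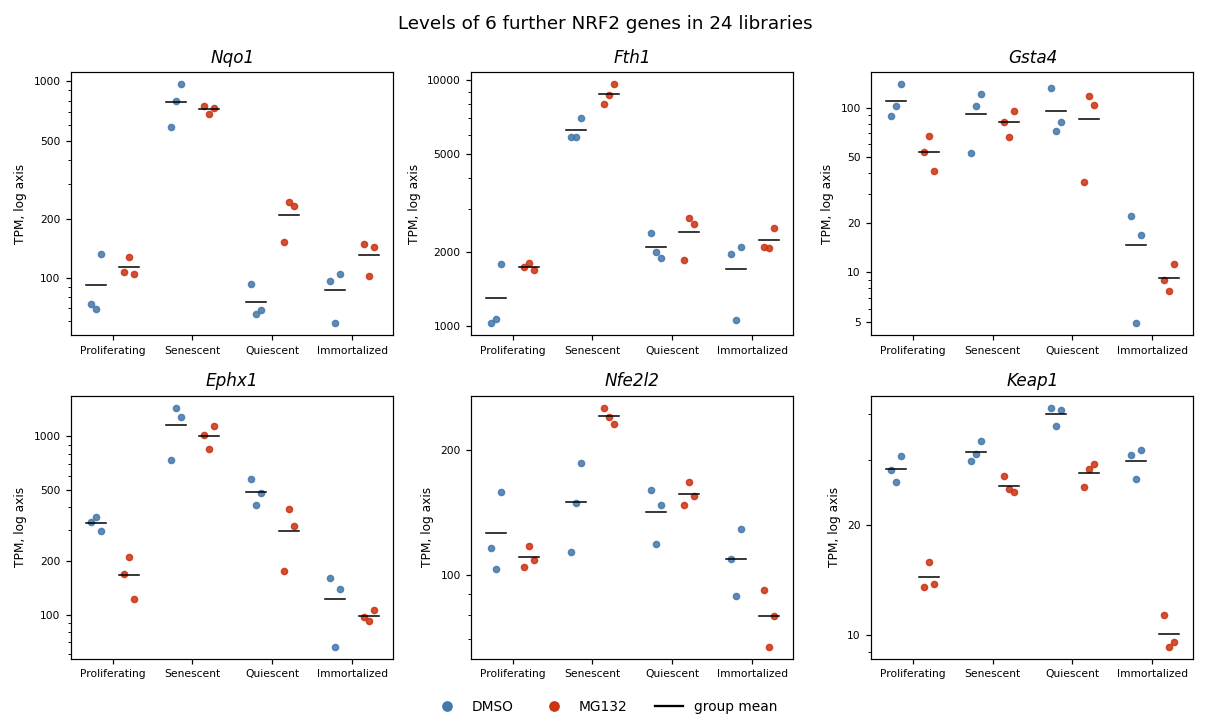
Deposited TPM on a log axis for Nqo1, Fth1, Gsta4, Ephx1, Nfe2l2 and Keap1 in each library (points, DMSO blue and MG132 red) with the group mean (line), by cell-state. Nqo1 and Fth1 are set apart by their senescent libraries, with DMSO means of 786 and 6260.4 TPM, and Gsta4 by its low immortalized libraries.

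Among the remaining antioxidant genes, Osgin1 encodes a growth inhibitor induced by oxidative stress. Under DMSO, Osgin1 stood at 31.4, 35.0 and 158 TPM in proliferating, 56.7, 182 and 423 TPM in senescent, 77.0, 22.6 and 36.5 TPM in quiescent and 46.9, 14.6 and 80.5 TPM in immortalized fibroblasts. MG132 took Osgin1 to 444, 667 and 553 TPM in proliferating, 1487, 1421 and 1414 TPM in senescent, 165, 575 and 387 TPM in quiescent and 164, 51.7 and 140.3 TPM in immortalized fibroblasts. Treated libraries lay above the controls in all cell-states except the immortalized, where 1 treated library fell within the control range. Osgin1 differed by 3.86 ± 0.71 (proliferating), 3.14 ± 0.71 (senescent), 3.20 ± 0.71 (quiescent) and 2.21 ± 0.71 (immortalized), and limma adjusted p values were 0.00016, 0.00121, 0.000955 and 0.0128. In immortalized fibroblasts the call of Osgin1 was lost on the deposited TPM (1.44), with the step undone (1.54), and without DMSO 2 (1.58), MG132 1 (1.94) or MG132 3 (1.98).

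Sod1, the cytosolic copper and zinc superoxide dismutase, carries the TGACNNNGC match shown above. Under DMSO, Sod1 stood at 339.6, 383 and 649 TPM in proliferating, 482, 356 and 386 TPM in senescent, 323, 358 and 274 TPM in quiescent and 618, 424 and 658 TPM in immortalized fibroblasts. After MG132 Sod1 was at 959.6, 845 and 948 TPM in proliferating, 657, 832 and 828 TPM in senescent, 676, 738 and 771 TPM in quiescent and 772, 884 and 944 TPM in immortalized fibroblasts. Its treated libraries lay above the controls in every cell-state with no overlap. Sod1 differed by 1.66 ± 0.23 (proliferating), 0.94 ± 0.23 (senescent), 1.38 ± 0.23 (quiescent) and 1.41 ± 0.23 (immortalized), and limma adjusted p values were 6.95e-06, 0.00213, 5.31e-05 and 3.12e-05. Cat, catalase of the peroxisome, rose in quiescent (0.60 ± 0.14) and fell in immortalized fibroblasts (-0.40 ± 0.14), and the fall was not called without DMSO 1, DMSO 3 or MG132 2 or in a fit of only those 6 libraries.

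The next question was how the cell-states compared before any inhibition. Senescent fibroblasts stood above proliferating ones for 17 members and below for 1 (Txn1), where 21% of all tested genes were higher and 19.8% lower. Besides Nqo1 and Fth1, the higher ones included Gclm (1.85 ± 0.18), Ephx1 (1.69 ± 0.29), Aox1 (1.61 ± 0.25) and Cat (1.27 ± 0.14), while neither Nfe2l2 (0.16 ± 0.16) nor Keap1 (0.07 ± 0.09) was called. A fit of only these 6 libraries gave 11 higher and 0 lower, and leaving out proliferating DMSO library 3 gave 24 higher. Quiescent fibroblasts stood above proliferating ones for 2 members, Keap1 and G6pdx, and below for 7, against 15.5% and 14.7% of all genes, and on the deposited TPM the split was 4 and 6. Without proliferating DMSO library 3 the counts were 4 and 5, and a fit of only those libraries gave 0 and 5. The lower ones were Hmox1, Txnrd1, Taldo1, Prdx6, Gsr, Me1 and Tkt.

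Immortalized fibroblasts were higher than proliferating ones for 7 members and lower for 2, against 18% and 17.7% of all genes, and the 2 were Gsta4 and Ephx1. Without proliferating DMSO library 3, the counts were 18 and 2, and in a fit of those 6 libraries alone 2 and 2. Quiescent fibroblasts were lower than senescent ones for 22 members and higher for 1 (Keap1), where 19.3% of all genes were higher and 19.8% lower. Immortalized fibroblasts were higher than senescent ones for 5 members and lower for 15, against 29.3% and 30.8%, and with the constant-sum step undone for 2 and 19. They were higher than quiescent ones for 14 and lower for 4, against 25.1% in either direction. The median log2 difference of the members was 0.70 for senescent, -0.37 for quiescent and 0.30 for immortalized against proliferating fibroblasts, and -1.09 for quiescent against senescent fibroblasts. These comparisons share their DMSO libraries, and the MG132 responses share them too.

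**Figure D5:**
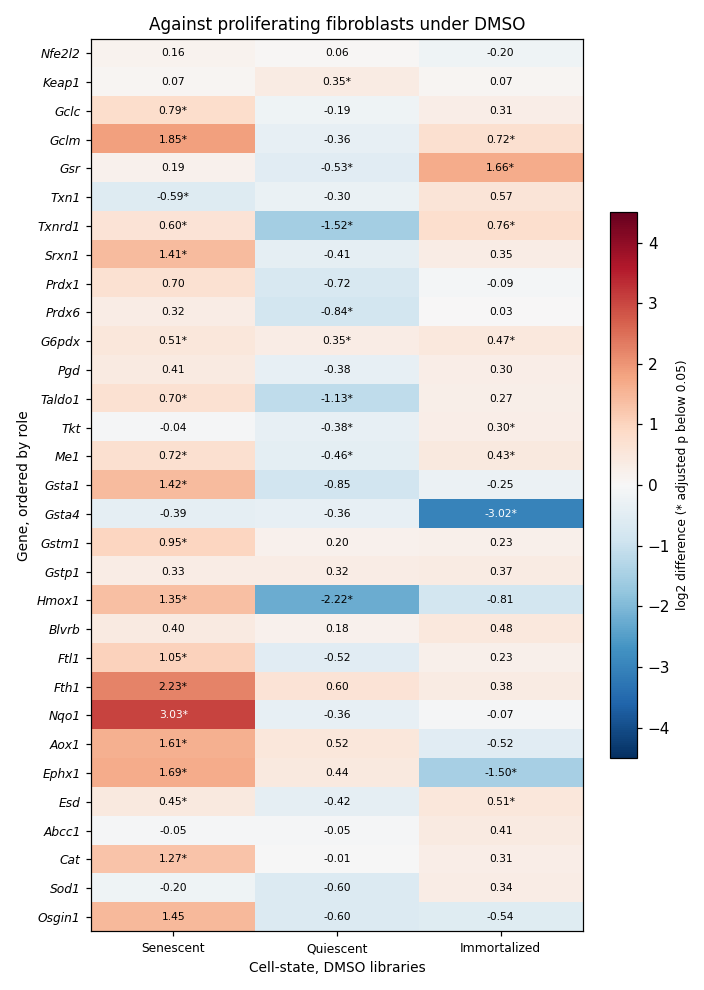
Log2 difference of senescent, quiescent and immortalized against proliferating fibroblasts under DMSO for the 31 tested NRF2 genes (rows, ordered by role), with a star where the limma adjusted p was under 0.05. The senescent column is mostly red, with Nqo1 at 3.03, the quiescent column mostly pale or blue, with Hmox1 at -2.22, and the immortalized column is deepest at Gsta4 (-3.02).

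The last question was whether the responses themselves differed between cell-states, tested as differences of the 2 log2 differences. Senescent fibroblasts responded less than proliferating ones for 11 members and more for 0, where 18.8% of all genes differed. Hmox1 differed most, by -2.47 ± 0.60 (limma adjusted p = 0.00729), and Ftl1 by -1.74 ± 0.31 (limma adjusted p = 0.000642). The others were Gclm, Txnrd1, Srxn1, Taldo1, Tkt, Me1, Nqo1, Aox1 and Esd, and the difference of Tkt was 0.04 on the deposited TPM. Under that scaling and with the step undone the split was 3 and 5. Without proliferating DMSO library 3 the response of 19 members was lower, and without proliferating DMSO library 1 or senescent MG132 library 3 that of 7.

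Quiescent fibroblasts responded more than proliferating ones for 4 members, Gsr (1.10 ± 0.20, limma adjusted p = 0.00118), Txnrd1 (1.02 ± 0.18, limma adjusted p = 0.000869), Taldo1 and Prdx6, where 13% of all genes differed. These 4 are about the same share of the members as that over all genes. The count was 10 on the deposited TPM, 9 with the step undone, and 7, of which 3 were lower, without proliferating DMSO library 3. Immortalized fibroblasts responded less than proliferating ones for 5 members (11.6% of all genes), Gsr (-2.33 ± 0.20, limma adjusted p = 2.82e-07), Pgd (-1.33 ± 0.33, limma adjusted p = 0.0132), G6pdx, Txnrd1 and Cat. That count was 8 on the deposited TPM, 11 without proliferating DMSO library 3, and 9, of which 1 was higher, without immortalized DMSO library 2.

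Against senescent fibroblasts, quiescent ones responded more for 14 members and less for 0, where 20.3% of all genes differed. The differences were 3.27 ± 0.60 for Hmox1 (limma adjusted p = 0.000647) and 2.53 ± 0.18 for Txnrd1 (limma adjusted p = 9.98e-09). Immortalized fibroblasts responded more than senescent ones for 8 members and less for 3, where 38.5% of all genes differed, a share that the members did not exceed, and on the deposited TPM for 2 and 9. Hmox1 was among the former, by 2.90 ± 0.60 (limma adjusted p = 0.000807), and Gsr among the latter, by -2.71 ± 0.20 (limma adjusted p = 3.74e-09). Of the former, Txnrd1 became -0.04 on the deposited TPM, and Tkt became -0.22 there and -0.05 with the step undone.

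Between immortalized and quiescent fibroblasts, the immortalized response was higher for 2 members and lower for 9, where 31.1% of all genes differed, near the share of the members, and 0 and 15 on the deposited TPM. Gsr differed by -3.43 ± 0.20 (limma adjusted p = 2.77e-10) and Txnrd1 by -1.81 ± 0.18 (limma adjusted p = 4.71e-07). The study grouped the quiescent and immortalized fibroblasts as the cell-states that form aggresomes, deposits of misfolded protein at the microtubule organising centre. Their mean response was above that of proliferating and senescent fibroblasts for 7 members and below for 1, Gsr, where 19.7% of all genes differed, and on the deposited TPM for 6 and 3. Hmox1 differed by 1.85 ± 0.43 (limma adjusted p = 0.00421) and Nqo1 by 1.07 ± 0.25 (limma adjusted p = 0.00439). No member was called in the same direction in all 4 pairwise differences that make up that contrast.

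Other genes of the same pathway were read against the 22.7% to 26.6% of all genes that rose and the 23.4% to 26.9% that fell in a single response. Those shares belong to the scaled values. On the deposited TPM the median gene was itself lower, as given above. Of 12 partners and regulators of NRF2, 6 (proliferating), 6 (senescent), 10 (quiescent) and 7 (immortalized) rose and 1, 0, 0 and 2 fell, but on the deposited TPM 3 rose and 4 fell in proliferating and 3 rose and 6 fell in immortalized fibroblasts. The median log2 difference of these 12 was 0.31 (proliferating), 0.42 (senescent), 0.50 (quiescent) and 0.42 (immortalized). Sqstm1, whose p62 protein sequesters KEAP1, rose in all 4, with log2 differences of 2.79, 1.41, 3.14 and 3.10 in the order proliferating, senescent, quiescent and immortalized, which is kept below. Maff, a small MAF partner, differed by 1.72, 0.32, 2.15 and 2.71 and was called higher in 3. Btrc, an adaptor of a further ligase that acts on NRF2, differed by -0.78, 0.31, -0.34 and -1.17 and was called lower in 2. Gsk3b, the kinase that marks NRF2 for that ligase, differed by -0.33, 0.18, 0.38 and -0.39, called lower in immortalized and higher in quiescent fibroblasts. The quiescent call of Gsk3b was lost on the deposited TPM (0.21) and with the step undone (0.30). In proliferating fibroblasts Gsk3b was called lower on both of those scales (-0.89 and -0.84).

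Cystine uptake feeds glutathione synthesis, and of 14 genes for it and for other glutathione enzymes 6, 5, 5 and 6 rose and 0, 2, 2 and 0 fell, with medians of 0.21, 0.22, 0.06 and 0.35. On the deposited TPM there were 2 rises and 6 falls in immortalized, 3 and 4 in proliferating and 4 and 4 in quiescent fibroblasts. Slc7a11, the cystine transporter, rose in all 4, by 1.95, 2.22, 3.30 and 1.19, with the immortalized call lost on the deposited TPM (0.43) and with the step undone (0.52), as did Ggct, which degrades glutamyl peptides, by 1.60, 1.17, 1.07 and 2.36. Ggt5 (-0.75, -0.00, -1.95 and 0.01) and Gpx7 (-0.49, -0.86, -0.53 and 0.09) were each called lower in 1. The immortalized values of both became negative on both other scales, where Gpx7 was called lower in all 4 cell-states.

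Among 16 further glutathione transferases 2, 1, 2 and 3 rose and 3, 2, 7 and 1 fell, with medians of -0.26, 0.02, -0.71 and 0.20. In every cell-state the share of them that rose was below that of all genes. Without further scaling there was 1 rise and 2 falls in immortalized fibroblasts and 1 rise and 4 falls in proliferating ones. Gstt3 fell in all 4, most in quiescent fibroblasts (-1.63), and Gsto1 rose in 3 (1.01, -0.10, 1.92 and 1.39). Gstm2 (0.41, 0.79, -0.43 and 0.70), whose immortalized and proliferating values turned negative on the deposited TPM, was called higher in 2, and Gstm4 (-1.19, 0.19, -1.57 and 0.29), whose immortalized value turned negative there, lower in 2.

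Of 11 other peroxiredoxins, thioredoxins and superoxide dismutases 4, 1, 3 and 5 rose and 3, 1, 2 and 2 fell, with medians of 0.17, -0.08, -0.32 and 0.45, but no rise was called in immortalized fibroblasts on either other scale. The deposited TPM gave 2 rises and 5 falls in proliferating and 2 and 6 in quiescent fibroblasts. Txnl1 rose in all 4, least in senescent fibroblasts (0.68), with the immortalized value at 0.05 on the deposited TPM, and Txn2, mitochondrial thioredoxin, was called higher in 3 (0.58, 0.16, 0.44 and 0.76), with the proliferating and immortalized values at -0.02 and -0.01 on the deposited TPM. None of the 3 calls of Txn2 held on either other scale, where its quiescent value was 0.26 (deposited) and 0.35 (step undone). Txnip, which binds and inhibits thioredoxin, was called lower in 3 (-1.86, -1.23, -1.22 and 0.62), with the immortalized value negative on the deposited TPM, and Prdx3, the mitochondrial peroxiredoxin, in 2 (-0.34, -0.10, 0.16 and -0.63), with the quiescent value negative there.

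Of 18 further genes for detoxification, heme and export 4, 3, 4 and 4 rose and 2, 1, 5 and 3 fell, with medians of 0.03, -0.0037, -0.12 and 0.03. These counts lie near or below the shares over all genes in both directions. On the deposited TPM there were 2 rises and 10 falls in proliferating and 1 rise and 9 falls in immortalized fibroblasts. Akr1b3, an aldose reductase, rose in all 4 (1.14, 0.49, 0.67 and 1.13), and Ptgr1, which reduces prostaglandins and alkenals, in 3 (1.12, 0.57, 0.77 and 0.79), of which the immortalized one was 0.03 on the deposited TPM. Nqo2, the relative of Nqo1 that does not use NADPH, fell in all 4 (-0.63, -0.47, -1.54 and -0.60), and Fech, which completes heme, in 3 (-0.54, -0.18, -0.70 and -0.33).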

How the data were processed

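Poly(A) RNA of 24 samples, 3 for each of 8 groups, had been sequenced by the study from stranded paired-end libraries with ERCC spike-ins added per cell number. The values deposited are TPM. By the study's methods, reads were trimmed (Cutadapt), quantified against GRCm38 and ERCC transcripts (kallisto), normalized to the spike-ins (RUVg) and turned into TPM. Per the submitters' processing notes, the authors used HISAT2, StringTie and edgeR as well as cutadapt and FastQC. The deposited values carry a title that gives them as TPM normalized to ERCC. Which of these tools produced them could not be settled from the sources.

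The 32 members and all gene lists were chosen with earlier results of these data known. TPM were divided by median-of-ratios size factors computed from 13243 genes that no library lacked. This scaling sets aside a shift shared by most genes, which the study added its spike-ins to control for. The values log2(scaled TPM + 1) of 13489 genes with at least 1 TPM in at least 3 libraries entered 1 limma model (version 3.58.1, R 4.3.3; trended prior) with 8 groups and 16 residual degrees of freedom, without a replicate term. The 2-sided p-values were adjusted by Benjamini-Hochberg per comparison and called under 0.05. The model fit and the undoing of the constant-sum step were tried on simulated data, and the size-factor scaling was not. The methods say of experiments in general that they were repeated on at least 3 separate days. All samples came from 1 pool of animals and no label ties a replicate to a day or an animal, so the p-values reflect only how far these samples spread, possibly for technical reasons.

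Members with values in every library were those called in 1 direction in all 4 responses; the 3 largest called changes per response and 2 per DMSO comparison without overlap and with a mean of at least 10 TPM; the 2 largest per difference of responses; Nfe2l2 and Keap1. For other lists, up to 2 rises and 2 falls by mean response were named. Overlap of libraries was judged on deposited TPM. Alternatives were the deposited TPM, the constant-sum step undone (from the lowest steps of the values), pseudocounts of 0.1 and 5, no filter or 5 TPM, a fit of the compared libraries alone, a replicate block, no trend, array weights, and each library left out. Python 3.11.15 and matplotlib 3.10.9 made the figures.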

Additional observations from a re-analysis of the deposited data

Results flagged for a closer look

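The results below are the members whose MG132 response differed most between 2 cell-states by a test of the difference itself, or between the mean of 2 cell-states and that of the other 2, in limma. The libraries of each member are given in the report. Hmox1 differed by -2.47 for senescent minus proliferating, 3.27 for quiescent minus senescent, 2.90 for immortalized minus senescent and 1.85 for the quiescent and immortalized mean against the mean of the other 2 cell-states. Ftl1 differed by -1.74 for senescent minus proliferating fibroblasts. Gsr differed by 1.10 for quiescent minus proliferating, -2.33 for immortalized minus proliferating, -2.71 for immortalized minus senescent and -3.43 for immortalized minus quiescent fibroblasts. Txnrd1 differed by 1.02 for quiescent minus proliferating, 2.53 for quiescent minus senescent and -1.81 for immortalized minus quiescent fibroblasts. Pgd differed by -1.33 for immortalized minus proliferating fibroblasts, and Nqo1 by 1.07 for the contrast of the 2 means. Each of these 14 differences kept its call without any 1 library. The 6 comparisons of pairs share their libraries.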

How the results depend on the processing

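Of the 81 called member responses, 12 lost the call without 1 library or more, and 11 of 43 uncalled ones gained one. Only the libraries compared gave 11 called members (senescent), 5 (quiescent) and 4 (immortalized against proliferating fibroblasts under DMSO), and 7 for the senescent minus proliferating difference. Array weights, whose fit stopped before its tolerance was reached, gave 25 for the senescent response, 28, 16 and 25 for the 3 cell-states against proliferating fibroblasts, 23, 11 and 16 for the senescent, quiescent and immortalized response minus the proliferating one, and 18 for immortalized minus senescent, immortalized minus quiescent and the contrast of means. The deposited TPM gave 10 and 8 for the quiescent and immortalized response minus the proliferating one. Undoing the constant-sum step gave 14 for the immortalized response and 9 for quiescent minus proliferating. Leaving out each library gave 7 to 20 for immortalized against proliferating fibroblasts, 7 to 19 for senescent minus proliferating, 3 to 7 for quiescent minus proliferating and 4 to 11 for immortalized minus proliferating. The other counts, of rises and falls together, stayed within 1.5 times, but their direction could change. On the deposited TPM the immortalized response went from 18 higher and 4 lower to 7 and 9. There, immortalized minus senescent went from 8 and 3 to 2 and 9, and senescent minus proliferating from 0 and 11 to 3 and 5.

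Signs turned for Nfe2l2 in proliferating (-0.17 deposited, -0.11 undone) and immortalized fibroblasts (-0.45 deposited), Gstm1 in proliferating (-0.23, -0.17) and immortalized (-0.54, -0.45), Ftl1 in senescent (0.21, array weights), and in immortalized fibroblasts Gclc (-0.0027 deposited), Prdx6 (-0.25, -0.15), Taldo1 (-0.23, -0.14), Gstp1 (-0.46 deposited) and Abcc1 (-0.69, -0.60), given as deposited, then undone. On both scales the median of all genes lay lower in every response, as the report gives. The cause of the array weights change was not tested.

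The replicate numbers were not taken as pairs: deviations of same-numbered DMSO and MG132 libraries correlated at -0.66 to 0.40, over 0.1 in 3 of 12 pairs. With the replicate block, called members numbered 24, 13, 22 and 23 in the 4 responses, without the call of Gstm1 in proliferating and with those of Prdx1 in senescent and Gclm in immortalized fibroblasts. TPM keeps no depth, so what depth limits is unknown.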
